A study of Mus musculus and Acomys cahirinus with 84 samples.

Results

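The CDK inhibitor family comprises 7 genes, Cdkn1a, Cdkn1b, Cdkn1c, Cdkn2a, Cdkn2b, Cdkn2c and Cdkn2d. They were selected by gene symbol, and all 7 of 7 were found in each of the deposited count tables, which held 56980 mouse gene identifiers and 19818 gene names of the African spiny mouse, *Acomys cahirinus* (Acomys below). The samples were primary skin fibroblasts of mice labelled C56BL6, of wild mice and of Acomys, in 84 RNA-seq libraries that formed 21 groups of 4. Each population had cells left untreated or given 10 or 20 Gy of gamma radiation and collected at 24 h, and a 12 d series with the same doses and a further group labelled untreated and passaged. The labels give no age or sex, and they give no passage number or schedule for the passaged group. Library names give each replicate number 1 animal code within a population, so each number was taken as 1 animal that supplied a culture to all 7 groups. The 24 h libraries share 1 batch label and the 12 d libraries another. Effects of time and of batch therefore cannot be told apart, and levels at 24 h and 12 d were not tested against each other.

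Progression through the cell cycle is driven by cyclin-dependent kinases (CDKs), which are switched on by cyclins and held back by CDK inhibitors. The Cip/Kip inhibitors p21 (Cdkn1a), p27 (Cdkn1b) and p57 (Cdkn1c) bind several cyclin-CDK complexes. The INK4 inhibitors p16 (from Cdkn2a), p15 (Cdkn2b), p18 (Cdkn2c) and p19 (Cdkn2d) bind CDK4 and CDK6. Cdkn1a is a direct target of the DNA damage factor p53, and Cdkn2a also encodes Arf, which stabilizes p53 by binding Mdm2. In fibroblasts, Cdkn1a and Cdkn2a transcripts are widely used marks of lasting cell-cycle arrest, whereas p27 is known for its accumulation in quiescent cells.

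In GRCm39 coordinates of the mouse table, Cdkn2a (chr4:89192708-89212890, minus strand) and Cdkn2b (chr4:89224536-89229276, minus strand) are neighbours, and Cdkn2c lies farther along the same chromosome (chr4:109518073-109524386, minus strand). Cdkn1a is at chr17:29309950-29319701 on the plus strand, Cdkn1b at chr6:134897364-134902476 on the plus strand, Cdkn1c at chr7:143012076-143014787 on the minus strand and Cdkn2d at chr9:21199706-21202703 on the minus strand. Cdkn2a and Cdkn2b were also neighbours in the Acomys table, on scaffold_2. The counts of Cdkn2a pool the p16 and Arf transcripts, which share exons and cannot be separated here. Reads were counted without strand, and exons of other annotated genes covered 30.7% of the mouse Cdkn1c exons, 12.7% of those of Cdkn2c and 7.7% of those of Cdkn1a. The gene over Cdkn1c had 0 counts in all mouse libraries together, and the one over Cdkn2c had 138. The one over Cdkn1a, the antisense gene Dino, had 1989 against 708068 for Cdkn1a. Counting used no overlap option, so these counts do not show how many reads on shared exons were left out of the members. Levels per kb below were still divided by the full exonic length.

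Upstream sequence is shown for Cdkn1a, since p53 is its known activator and it was the member that rose with the block in all 3 populations at 24 h, and for the members with an E2F word. The p53 full site (a pair of 10-base half-sites with no gap) was searched for on 5000 bases upstream of each start in GENCODE vM39, with the 4 central bases of each half-site held and 1 departure allowed among the other bases. This allowance was made after no member had a site without a departure. Each start was the outermost boundary of the gene, so starts of transcripts further inside a gene were not used. A distance given here is therefore not the distance from every transcript start. Cdkn1a had 1 match, at chr17:29309902-29309921 on the plus strand of GRCm39, beginning 34 bases upstream of the start annotated there, and the other members had 0. The site is in capitals below, with its flanks in lower case.
Cdkn1a, p53 full site: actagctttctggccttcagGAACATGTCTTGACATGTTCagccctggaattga
Such a match was present in 0.72% of 21767 protein-coding genes, and a match without departure in 0.13%. E2F factors, which act downstream of the CDKs, were represented by the words TTTGGCGC, TTTCGCGC, TTTCCCGC and TTTGCCGC on either strand of the 250 bases upstream. Cdkn2a (beginning 65 bases upstream of its start, at the Arf end of the gene) and Cdkn2d (beginning 134 bases upstream) each held the word TTTCCCGC, shown in capitals, and 2.13% of protein-coding genes held at least 1 of these words.
Cdkn2a, chr4:89212891-89213140, minus strand: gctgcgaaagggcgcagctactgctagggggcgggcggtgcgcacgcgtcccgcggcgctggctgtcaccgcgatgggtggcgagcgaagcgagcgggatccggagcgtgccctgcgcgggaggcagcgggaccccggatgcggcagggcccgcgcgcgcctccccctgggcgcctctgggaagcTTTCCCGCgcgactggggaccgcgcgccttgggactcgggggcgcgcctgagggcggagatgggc
Cdkn2d, chr9:21202728-21202977, minus strand: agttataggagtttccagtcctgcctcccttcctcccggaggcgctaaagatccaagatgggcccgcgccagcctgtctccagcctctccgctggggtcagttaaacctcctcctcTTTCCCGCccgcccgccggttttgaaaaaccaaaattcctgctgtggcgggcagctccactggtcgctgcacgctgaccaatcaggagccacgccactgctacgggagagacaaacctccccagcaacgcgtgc
These matches are descriptions of the sequence and were not tested for binding.

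Totals per library, in M counts, ranged from 26.65 to 39.82 for C56BL6, from 17.42 to 35.98 for wild mice and from 25.55 to 52.86 for Acomys. Levels in CPM are the count divided by the library total in M after edgeR's TMM scaling. A floor of 3 counts in 1 library corresponded to between 0.057 and 0.172 CPM when divided by the total without this scaling. Of 10 fibroblast markers, 8, 8 and 10 exceeded 1 CPM in every library of C56BL6, wild mice and Acomys. The 6 keratinocyte markers summed to 195 to 838 CPM in the 7 libraries of C56BL6 replicate 1 and to at most 4.84 CPM in other C56BL6 replicates. The sum in replicate 1 came mainly from Krt5 (60.2 to 413 CPM) and Krt14 (130 to 419.5 CPM). Its Krt15 (1.43 to 3.40 CPM) overlapped that of replicate 2 (up to 2.665 CPM). Its Trp63 (0.207 to 3.58 CPM) overlapped that of replicate 4 (up to 1.82 CPM). Cdh1 and Epcam were below 1 CPM in all C56BL6 libraries. The 4 smooth muscle and pericyte markers summed to 552.9 to 1809 CPM in Acomys (median 1358), highest in replicate 4 at 12 d after 20 Gy, against medians of 141.5 CPM in C56BL6 and 93.3 CPM in wild mice, where untreated replicate 1 at 24 h reached 2494 CPM. The Acomys and mouse levels come from tables scaled separately, and the part of these markers in the differences between populations was not tested. Wild replicate 1 at 24 h and 10 Gy had 17843 genes with a count, against 21846 to 22253 in its group. Its total was also lower, at 17.42 M counts against 29.05 to 32.52 M, and the part of depth in this was not tested. Wild replicate 3 at 12 d had 1343 to 1481 CPM of the collagen gene Col1a1 without passage, whereas the other unpassaged wild libraries at 12 d had 5976 to 30070 CPM. Cultures of wild replicate 1 at 24 h and at 12 d differed in 59 genes that were above 1 CPM in every library of 1 set and below 0.1 CPM in every library of the other. Such genes numbered 0 between wild replicate 1 at 12 d and wild replicate 4 at either time, and 0 between the times for every other replicate number. They numbered 18 to 155 between the other pairs of wild cultures with different numbers. The names give wild replicates 1 and 4 as separate animals, and whether their 12 d cultures are was not tested further. The part of these libraries in the results was not tested beyond the values without them given below.

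**Figure D1:**
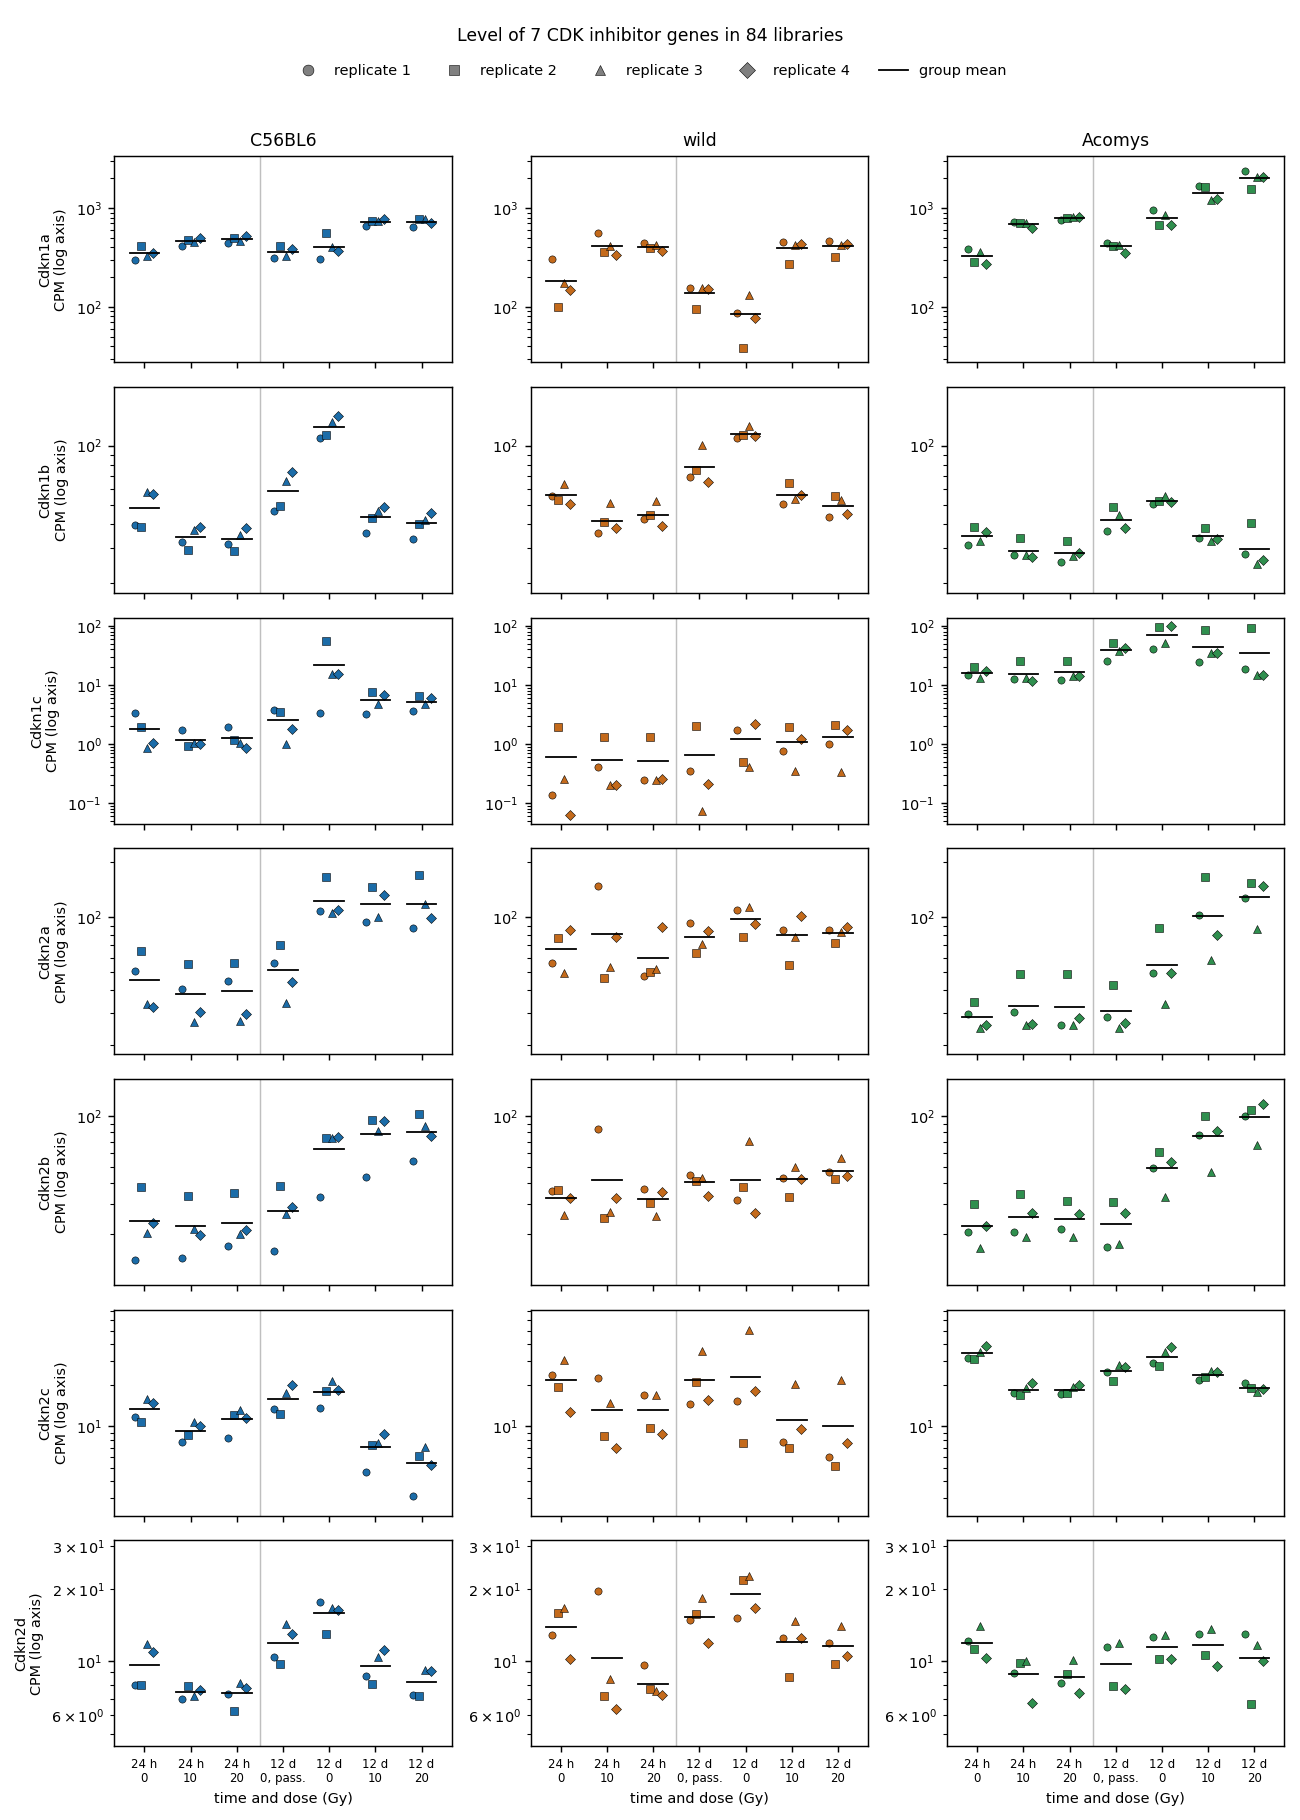
Level of each CDK inhibitor gene in CPM (vertical log axis, shared within a row) in 84 libraries, by population (columns) and by time and dose in Gy (horizontal axis). Symbols mark the replicate numbers, horizontal bars the mean of 4 libraries, and the grey line separates the 24 h from the 12 d libraries. Cdkn1a is higher in each irradiated group than in the untreated group of the same time, and the mean of Cdkn1b is highest in unpassaged untreated cells at 12 d in all 3 populations.

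Levels of different genes are given per length, as CPM per kb of exonic length in the table. This length covers all annotated exons of a gene. It was 3553 bases for Cdkn1a and 4552 for Cdkn1b in mice, against 2060 and 2439 in Acomys. The order of the genes and their shares depend on these lengths, and other lengths were not tried. In untreated C56BL6 at 24 h, Cdkn1a stood at 98.2 ± 13.6 CPM per kb (SD, n = 4), followed by Cdkn2a at 38.8 ± 13.5, Cdkn2b at 17.3 ± 7.36, Cdkn1b at 10.6 ± 2.35, Cdkn2d at 6.14 ± 1.26, Cdkn2c at 4.95 ± 0.904 and Cdkn1c at 0.881 ± 0.553. The libraries of Cdkn2b and Cdkn1b overlapped in that order, as did those of Cdkn2d and Cdkn2c. In untreated wild mice at 24 h, Cdkn2a (57.04 ± 14.2 CPM per kb) and Cdkn1a (51.6 ± 24.8) led the family with overlapping libraries. In untreated Acomys at 24 h, Cdkn1a stood at 158 ± 26.8 CPM per kb, above Cdkn2a at 30.4 ± 4.70, and Cdkn1c at 8.05 ± 1.55 overlapped Cdkn2d at 7.74 ± 1.04. Levels in Acomys and in mice come from separate gene models and were not tested against each other.

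Among untreated cells at 12 d the order differed. In C56BL6, Cdkn1a at 115 ± 30.5 CPM per kb and Cdkn2a at 104 ± 24.7 overlapped. In wild mice, Cdkn2a led at 83.6 ± 13.9 CPM per kb, and Cdkn2b at 30.2 ± 14.4, Cdkn1b at 25.3 ± 1.69 and Cdkn1a at 23.6 ± 10.95 overlapped in sequence. At 12 d after 20 Gy, Cdkn1a led in every population, with 204.5 ± 18.9 CPM per kb in C56BL6, 116 ± 17.6 in wild mice and 981 ± 163 in Acomys, and its lowest library was above the highest of Cdkn2a, the next gene in each. The mean share of Cdkn1a in the family's summed CPM per kb at 12 d was 35.7% ± 1.69 (SD, n = 4) untreated and 54.1% ± 4.33 at 20 Gy in C56BL6. It was 12.4% ± 3.43 and 47.7% ± 3.01 in wild mice, and 68.7% ± 8.36 and 79.2% ± 6.36 in Acomys. The untreated and 20 Gy shares overlapped in Acomys, where they spanned 59.3% to 75.8% and 70.8% to 85.4%.

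**Figure D2:**
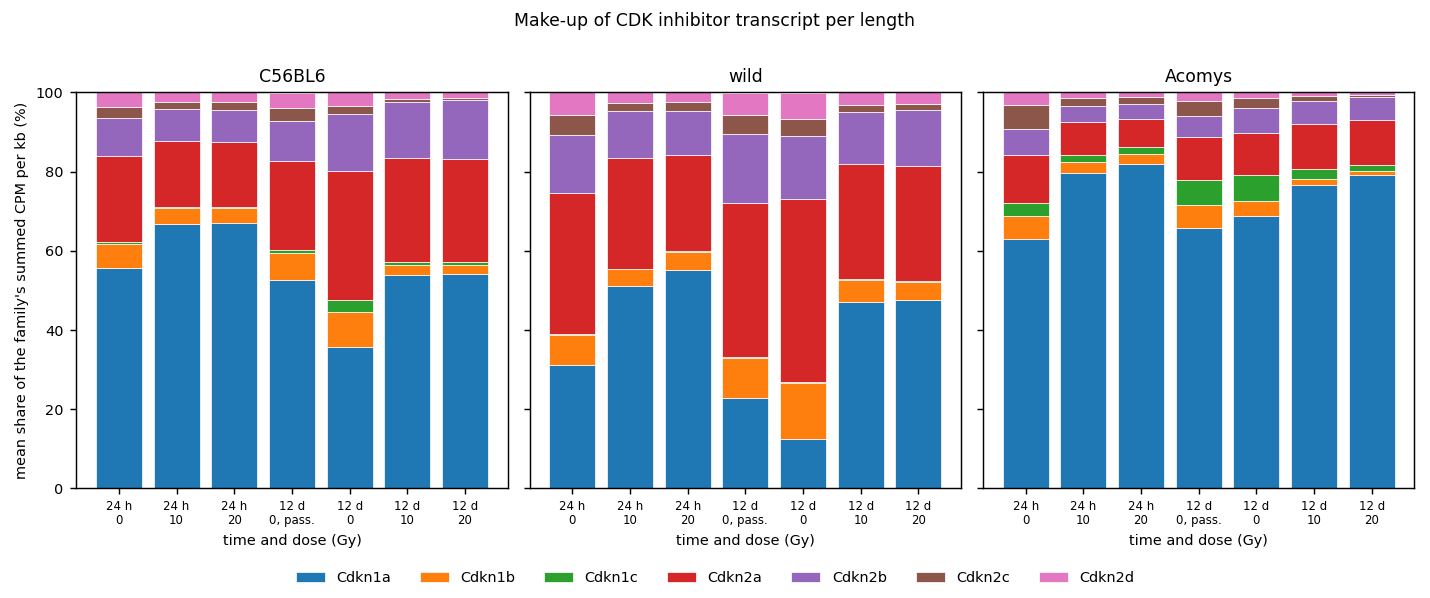
Mean share of each gene (%, vertical axis from 0 to 100) in the summed CPM per kb of the 7 CDK inhibitor genes, by time and dose in Gy, in 3 populations (4 libraries a bar). Shares depend on the annotated exonic lengths. The Cdkn1a share at 12 d goes from 35.7% untreated to 54.1% at 20 Gy in C56BL6 and from 12.4% to 47.7% in wild mice.

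Cells at 24 h after 20 Gy were first compared with untreated cells of the same time. In these bulk samples, fewer cells of a type and less RNA per cell cannot be told apart. In Acomys, Cdkn1a rose and Cdkn2c fell. Cdkn1a was at 386, 286, 359 and 272 CPM in untreated Acomys replicates 1 to 4 and at 764, 803, 822 and 806 CPM after 20 Gy. The groups did not overlap, and the log2 fold change was 1.30 ± 0.12 (SE), with an adjusted p of 0.0031 (edgeR quasi-likelihood test, Benjamini-Hochberg over all genes tested). Cdkn2c, whose product p18 inhibits CDK4 and CDK6, was at 31.5, 31.3, 35.1 and 39.1 CPM untreated and at 17.2, 17.6, 19.5 and 20.1 CPM after 20 Gy. Every irradiated Acomys culture lay below every untreated one for Cdkn2c, and the log2 fold change was -0.87 ± 0.10 with an adjusted p of 0.0037. Without replicate 3 the adjusted p was 0.0826 for Cdkn1a and 0.0968 for Cdkn2c, and without replicate 1 it was 0.0622 for Cdkn2c.

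No member passed the test in the mice at 24 h after 20 Gy, where 3 of 7 members in C56BL6 and 3 of 6 in wild mice had an unadjusted p under 0.05 and DESeq2 called 1 and 0. Cdkn1c was too low in wild mice at 24 h to be tested (0.0625 to 1.96 CPM). Among all genes tested, the share past the threshold was 0.0895% in C56BL6, 0% in wild mice and 3.59% in Acomys. The same test was then run with the replicate number added to the model, so that cultures of 1 animal were compared with each other (the block below). Every log2 fold change given with an SE is from the fit without the block, also beside an adjusted p with the block. Such an SE does not belong to that p. With the block the shares of all genes were 17.6%, 12.5% and 24.1%, and 4 members passed in each population.

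Cdkn1a was the member that rose with the block in all 3 populations. In C56BL6 its levels were 300.5, 414, 330 and 351 CPM untreated and 441, 497, 470 and 521 CPM after 20 Gy, a log2 fold change of 0.47 ± 0.11 (adjusted p = 0.166, 6.01e-05 with the block). The groups did not overlap. In wild mice Cdkn1a was at 307, 100.7, 176 and 150 CPM untreated and at 442, 390, 423 and 372 CPM after 20 Gy, a log2 fold change of 1.16 ± 0.31 (adjusted p = 0.623, 0.00102 with the block). Untreated wild replicate 1 was the highest of its group and stood below the lowest irradiated library.

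The 3 other calls in each population with the block were falls. Cdkn1b, which encodes p27, fell in all 3, by 0.52 ± 0.16 in C56BL6, 0.31 ± 0.12 in wild mice and 0.28 ± 0.10 in Acomys on the log2 scale (adjusted p with the block 0.000198, 0.0214 and 0.0100). Cdkn2d, another INK4 gene, fell by 0.39 ± 0.17, 0.78 ± 0.20 and 0.46 ± 0.14 (adjusted p with the block 0.0133, 0.00641 and 0.00357). All 4 animals of each population were lower after irradiation for both genes. The remaining call in C56BL6 was Cdkn2a, with a log2 fold change of -0.21 ± 0.29 without the block (adjusted p with the block 0.0172). It was Cdkn2c in wild mice (-0.72 ± 0.33, 0.00273) and in Acomys. Cdkn2b did not pass in any population, with log2 fold changes of -0.03 ± 0.32 in C56BL6, -0.01 ± 0.16 in wild mice and 0.14 ± 0.20 in Acomys.

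**Figure D3:**
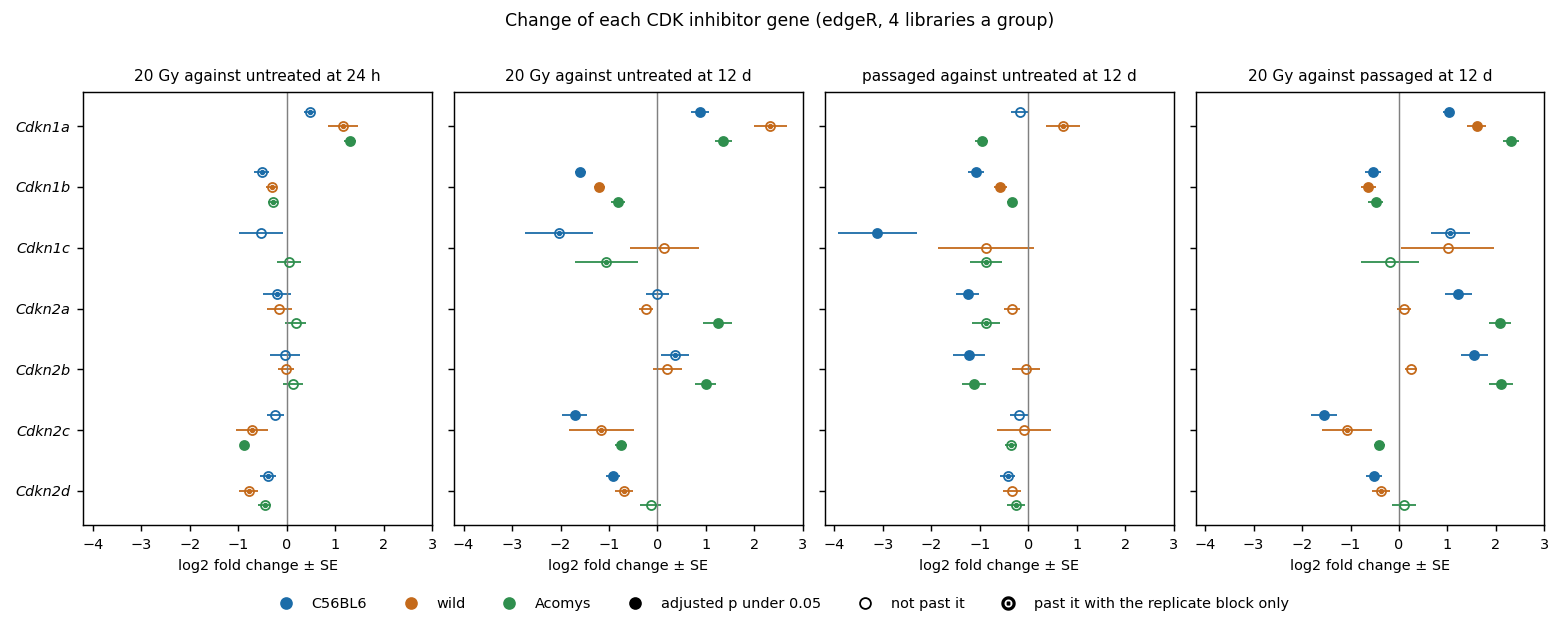
Log2 fold change ± SE (horizontal axis) of each CDK inhibitor gene in 4 comparisons (panels) and 3 populations (colours), from edgeR on 4 libraries a group. Filled points passed an adjusted p of 0.05, open points did not, and open points with a dot passed with the replicate block. Cdkn1b lies left of 0 in every panel and population, and Cdkn2a after 20 Gy at 12 d lies right of 0 past the threshold in Acomys.

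At 12 d after 20 Gy, 10 of 21 member tests passed, 4 of them rises and 6 falls, with 4 calls in C56BL6, 1 in wild mice and 5 in Acomys. With the block there were 16 (6 rises, 10 falls). Of all genes tested, 26.5% passed in C56BL6, 0.0694% in wild mice and 31.8% in Acomys, and 47.5%, 15.4% and 49.2% with the block. Of the 10 calls, 5 kept an adjusted p under 0.05 without each replicate in turn. The proliferation marker Mki67 at 12 d was already low in untreated C56BL6 (22.1 ± 20.97 CPM) and wild mice (24.8 ± 25.3 CPM), against 57.9 ± 9.06 CPM in untreated Acomys, and its level after 20 Gy was 7.28 ± 3.83, 10.1 ± 7.65 and 4.30 ± 1.46 CPM. The part of cell cycling in the values of the members was not tested.

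Cdkn1a, encoding p21, rose in C56BL6 and Acomys at 12 d. In Acomys it was at 963, 675, 848 and 673.5 CPM untreated and at 2383, 1572, 2082 and 2044 CPM after 20 Gy. The groups did not overlap, and the log2 fold change was 1.36 ± 0.18 (adjusted p = 0.00123, at most 0.0192 without any 1 replicate). In C56BL6 it was at 304, 558, 402 and 364 CPM untreated and at 644, 785, 778 and 699 CPM after 20 Gy, a log2 fold change of 0.88 ± 0.18 (adjusted p = 0.0109, 0.0872 without replicate 3 and 0.0719 without replicate 4). Untreated replicate 2 was the highest of its C56BL6 group and stood below all irradiated libraries.

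The fitted change of Cdkn1a was larger in wild mice, where it rose with the block. Levels were 86.3, 38.3, 133 and 77.6 CPM untreated and 469, 323, 428 and 431 CPM after 20 Gy, a log2 fold change of 2.33 ± 0.35 (adjusted p = 0.0680, 0.00298 with the block). The irradiated wild levels lay below those of irradiated C56BL6, and the untreated ones lay lower still. With the block and without replicate 1, the log2 fold change was 2.43 (adjusted p = 0.0284).

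Cdkn1b fell in all 3 populations at 12 d. In C56BL6 it was at 109, 114, 132 and 142 CPM untreated and at 33.6, 39.8, 42.1 and 45.3 CPM after 20 Gy, a log2 fold change of -1.59 ± 0.12 (adjusted p = 0.000617, at most 0.0226 without any 1 replicate). In wild mice it was at 109, 113, 126 and 112 CPM untreated and at 43.2, 55.5, 52.7 and 45.1 CPM after 20 Gy, a log2 fold change of -1.20 ± 0.11 (adjusted p = 0.0298). In Acomys it was at 50.5, 52.5, 55.2 and 51.95 CPM untreated and at 28.2, 40.6, 24.9 and 26.1 CPM after 20 Gy, a log2 fold change of -0.81 ± 0.15 (adjusted p = 0.00438). No group overlapped its control, and Acomys replicate 2 had the smallest fall of its population. Without replicate 1, 2 or 4 the adjusted p in wild mice was 0.462, 0.0755 and 0.499, and in Acomys it was 0.0622 without replicate 1 and 0.0641 without replicate 3. With the block and without wild replicate 1, the fall in wild mice had an adjusted p of 0.0265.

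Cdkn1c, encoding p57, differed widely between animals at 12 d. In Acomys its levels were 39.9, 94.98, 50.5 and 97.8 CPM untreated and 18.2, 90.2, 14.5 and 14.7 CPM after 20 Gy, so replicate 2 stayed near its untreated level while the other 3 cultures fell below every untreated one. The log2 fold change was -1.05 ± 0.64 (adjusted p = 0.242, 0.0205 with the block, 0.0630 with the block but without replicate 1). Without replicate 2 the adjusted p was 0.00159. In C56BL6 Cdkn1c was at 3.37, 54.2, 15.5 and 15.1 CPM untreated and at 3.63, 6.46, 4.77 and 6.06 CPM after 20 Gy, a log2 fold change of -2.03 ± 0.70 (adjusted p = 0.0646, 0.0316 with the block). Replicate 1, the culture with Krt5 and Krt14 transcripts, had the lowest untreated level and was the 1 animal of 4 without a fall. Without this replicate the adjusted p was 0.0130. In wild mice Cdkn1c stayed between 0.335 and 2.20 CPM in these groups.

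Cdkn2a and Cdkn2b, the neighbouring genes of p16, Arf and p15, rose in Acomys at 12 d. Cdkn2a was at 49.7, 86.8, 33.5 and 49.3 CPM untreated and at 128, 153, 86.3 and 149 CPM after 20 Gy, a log2 fold change of 1.24 ± 0.29 (adjusted p = 0.0135, 0.000426 with the block). Untreated replicate 2 overlapped irradiated replicate 3, and each of the 4 animals was higher after irradiation. Cdkn2b was at 49.5, 61.4, 33.3 and 53.2 CPM untreated and at 99.7, 107.9, 67.2 and 118 CPM after 20 Gy, a log2 fold change of 0.996 ± 0.22 (adjusted p = 0.0102, 0.000185 with the block). Its groups did not overlap, and replicate 3 was the lowest in both. Without replicate 1 the adjusted p was 0.106 for Cdkn2a and 0.0857 for Cdkn2b, and without replicate 4 it was 0.0867 and 0.0575.

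In the mice, the same genes at 12 d did not pass the test without the block. Cdkn2a in C56BL6 was at 107.9, 165, 106 and 109 CPM untreated and at 87.2, 170, 118 and 98.6 CPM after 20 Gy, so the groups overlapped and 2 of 4 animals were higher after irradiation. Cdkn2a in wild mice was at 109, 78.0, 114 and 91.6 CPM untreated and at 84.5, 72.6, 82.7 and 88.0 CPM after 20 Gy, lower in 4 of 4 replicate numbers (log2 fold change -0.23 ± 0.14, adjusted p = 0.537, 0.174 with the block). Cdkn2b in C56BL6 was at 33.04, 73.8, 74.4 and 74.7 CPM untreated and at 54.4, 102.5, 87.3 and 76.3 CPM after 20 Gy, and it rose with the block (log2 fold change 0.36 ± 0.29, adjusted p = 0.376, 0.0274 with the block). In wild mice Cdkn2b was at 31.7, 38.1, 71.05 and 26.9 CPM untreated and at 46.5, 42.6, 56.7 and 44.02 CPM after 20 Gy, with overlapping groups (0.21 ± 0.29, adjusted p = 0.828). Cdkn2a and Cdkn2b were both higher in untreated C56BL6 at 12 d than in passaged C56BL6 of the same series, as described below.

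Cdkn2c fell in C56BL6 and Acomys at 12 d. It was at 13.7, 18.3, 21.6 and 18.5 CPM untreated and at 3.11, 6.05, 7.04 and 5.25 CPM after 20 Gy in C56BL6, a log2 fold change of -1.71 ± 0.25 (adjusted p = 0.00321). In Acomys it was at 29.03, 27.7, 34.9 and 38 CPM untreated and at 20.6, 19.2, 17.8 and 18.9 CPM after 20 Gy, a log2 fold change of -0.76 ± 0.12 (adjusted p = 0.00264). Neither pair of groups overlapped, and both calls held without each replicate in turn. In wild mice Cdkn2c was at 15.4, 7.52, 51.1 and 18.1 CPM untreated and at 5.99, 5.15, 21.7 and 7.60 CPM after 20 Gy, with replicate 3, the culture of low Col1a1, highest in both. It fell with the block (log2 fold change -1.16 ± 0.67, adjusted p = 0.501, 0.00777 with the block), and with the block but without replicate 1 the adjusted p was 0.0555.

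Cdkn2d fell in C56BL6 at 12 d, from 17.6, 12.99, 16.7 and 16.3 CPM to 7.25, 7.18, 9.22 and 9.11 CPM, without overlap (log2 fold change -0.92 ± 0.14, adjusted p = 0.00353, at most 0.0381 without any 1 replicate). In wild mice it fell with the block, from 15.1, 21.7, 22.7 and 16.6 CPM to 11.9, 9.70, 14.1 and 10.5 CPM, also without overlap (-0.69 ± 0.19, adjusted p = 0.186, 0.0287 with the block and 0.0695 with the block but without replicate 1). In Acomys Cdkn2d was at 12.7, 10.2, 12.8 and 10.2 CPM untreated and at 12.9, 6.65, 11.7 and 10.1 CPM after 20 Gy. Those groups overlapped, and the log2 fold change was -0.14 ± 0.21 (adjusted p = 0.640).

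**Figure D4:**
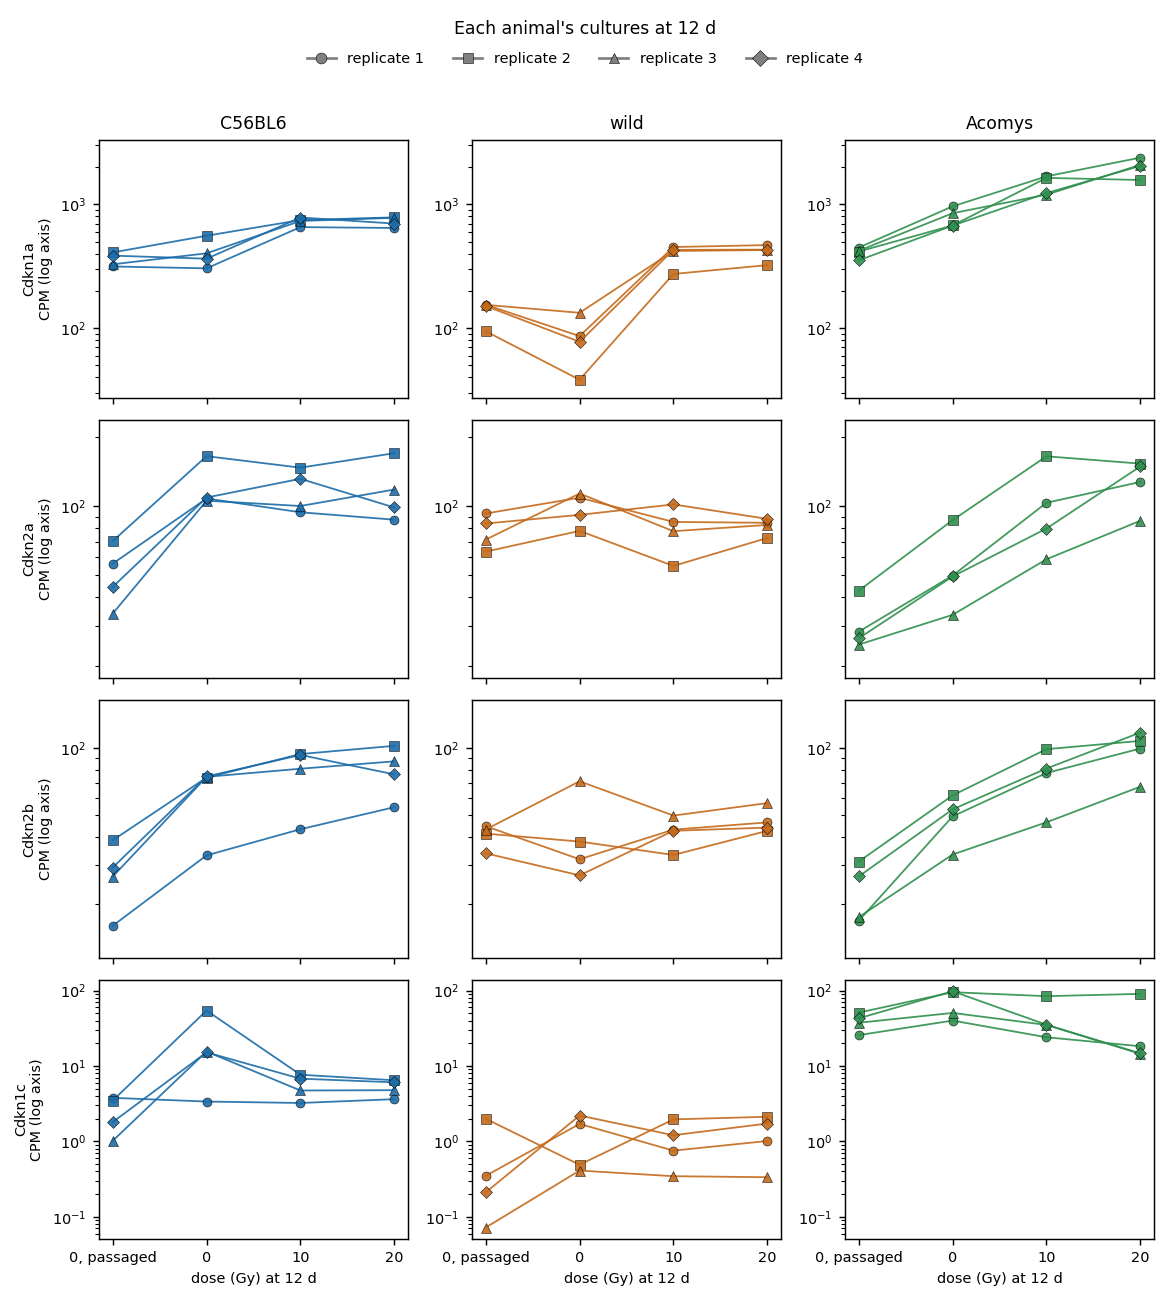
Cdkn1a, Cdkn2a, Cdkn2b and Cdkn1c (rows, CPM on a log axis) in the 4 cultures of each replicate number at 12 d, joined by lines: untreated passaged, untreated, 10 Gy and 20 Gy (horizontal axis), in 3 populations (columns). In Acomys all 4 lines of Cdkn2a rise from untreated to 20 Gy, and for Cdkn1c replicate 2 ends at 90.2 CPM while the other 3 end between 14.5 and 18.2 CPM.

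The lower dose was compared with untreated cells in the same way. At 24 h after 10 Gy, Cdkn1a (log2 fold change 1.10 ± 0.12) and Cdkn2c (-0.88 ± 0.10) passed in Acomys, both with an adjusted p of 0.00546, which was 0.0976 without replicate 1 and 0.143 without replicate 3 for both genes. The share of all genes past the threshold was 3.73% in Acomys (27.6% with the block), 0.007% in C56BL6 (11.5%) and 0% in wild mice (0%). No member passed in the mice by edgeR, with 4 of 7 in C56BL6 and 2 of 6 in wild mice at an unadjusted p under 0.05 and 1 and 0 called by DESeq2. With the block, Cdkn1a rose in C56BL6 (0.41 ± 0.11, adjusted p = 0.00146) and Cdkn1b, Cdkn2a and Cdkn2c fell there, and in Acomys Cdkn1b and Cdkn2d also fell. In wild mice the block gave no call, and the block without replicate 1, whose 10 Gy library had few genes with a count, gave 4. These were Cdkn1a (log2 fold change 1.42, adjusted p = 4.33e-05), Cdkn1b (-0.35, 0.00559), Cdkn2c (-1.03, 0.000120) and Cdkn2d (-0.93, 0.000532). That fit was added after seeing the data. Its share of all genes past the threshold is not given, so the 4 calls cannot be set against it. The replicate 1 library at 10 Gy held 148 CPM of Cdkn2a, 83.1 CPM of Cdkn2b and 19.5 CPM of Cdkn2d, above the 46.6 to 77.4, 25.1 to 32.95 and 6.35 to 8.43 CPM of the other 3.

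At 12 d after 10 Gy, 7 member tests passed (2 rises and 5 falls), and 15 passed with the block. Cdkn1a rose in C56BL6 (0.89 ± 0.18, adjusted p = 0.0126) and in Acomys (0.87 ± 0.18, 0.0446). Cdkn1b fell in C56BL6 (-1.47 ± 0.13, 0.00105), wild mice (-1.02 ± 0.12, 0.0274) and Acomys (-0.60 ± 0.09, 0.0336), and Cdkn2c (-1.31 ± 0.22, 0.00626) and Cdkn2d (-0.69 ± 0.15, 0.0149) fell in C56BL6. Of the 7 calls, 1 held without each replicate in turn, Cdkn1b in C56BL6. In C56BL6, the adjusted p was 0.110 and 0.0912 for Cdkn1a without replicates 3 and 4, 0.0512 and 0.0703 for Cdkn2c without replicates 2 and 3, and 0.109 and 0.0599 for Cdkn2d without replicates 3 and 4. Cdkn1b in wild mice was lost without any 1 replicate, with adjusted p of 0.0523 to 0.543. In Acomys, both calls were lost without replicates 1, 3 and 4, with adjusted p of 0.169 to 0.315 for Cdkn1a and 0.159 to 0.279 for Cdkn1b. In Acomys, Cdkn2a stood at 103, 165, 58.6 and 79.8 CPM and Cdkn2b at 77.4, 99.04, 46.5 and 81.1 CPM after 10 Gy, each animal above its own untreated culture, and both rose with the block (0.89 ± 0.38 and 0.62 ± 0.26, adjusted p with the block 0.000877 and 0.00142). The share of all genes past the threshold was 20.9% in C56BL6, 0.264% in wild mice and 2.87% in Acomys, and 38.8%, 12.7% and 27.5% with the block.

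Between 20 and 10 Gy, no member passed at either time by edgeR without the block or by DESeq2. At an unadjusted p under 0.05 there was 1 of 20 member tests at 24 h and 2 of 21 at 12 d, all in Acomys. With the block, Cdkn1a was higher after 20 Gy than after 10 Gy in Acomys at 24 h (0.20 ± 0.06, adjusted p = 0.0250) and at 12 d (0.50 ± 0.18, 0.0410), as was Cdkn2b at 12 d (0.38 ± 0.24, 0.0206). With the block but without replicate 1, the adjusted p at 12 d was 0.131 for Cdkn1a and 0.0862 for Cdkn2b. At 24 h the share of all genes past the threshold was 0%, 0% and 0% in C56BL6, wild mice and Acomys, and 1.44%, 0% and 0.302% with the block. At 12 d it was 0%, 0% and 0.457%, and 0.297%, 0.257% and 17.9% with the block.

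Passaged untreated cells of the 12 d series had lower levels of several members than unpassaged untreated cells, and they had more transcript of cycling genes. All 8 calls were falls on passage: Cdkn1b, Cdkn1c, Cdkn2a and Cdkn2b in C56BL6, Cdkn1b in wild mice, and Cdkn1a, Cdkn1b and Cdkn2b in Acomys. Cdkn2a in C56BL6 was at 56.05, 70.3, 33.9 and 44.4 CPM in passaged cells against 107.9, 165, 106 and 109 CPM without passage (-1.25 ± 0.24, adjusted p = 0.00378). Cdkn2b in C56BL6 was at 15.96, 38.6, 26.5 and 29.1 CPM passaged (-1.21 ± 0.33, 0.0158), and it was 0.0913 and 0.0822 without replicates 3 and 4. Cdkn1c in C56BL6 was at 3.78, 3.48, 1.02 and 1.80 CPM passaged (-3.12 ± 0.81, 0.0135), and its adjusted p was 0.0531, 0.0591 and 0.0630 without replicates 2, 3 and 4. Replicate 1 was the animal without a lower Cdkn1c level in passaged cells, at 3.78 against 3.37 CPM.

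Cdkn1a fell on passage in Acomys and rose, with the block, in wild mice. In Acomys it was at 448, 416, 422 and 353 CPM in passaged cells, below all 4 unpassaged cultures (-0.96 ± 0.13, adjusted p = 0.00238). In wild mice passaged cells held 155, 94.4, 154 and 151 CPM, each above the unpassaged culture of the same number (0.72 ± 0.35, adjusted p = 0.216, 0.0179 with the block and 0.0774 with the block but without replicate 1). In C56BL6 it was at 315, 409, 328 and 385 CPM (-0.18 ± 0.19, adjusted p = 0.452). Cdkn2b in Acomys was at 16.8, 30.98, 17.4 and 26.6 CPM passaged (-1.13 ± 0.25, 0.0138), and without replicates 1 and 4 its adjusted p was 0.0961 and 0.0657. Cdkn1b changed by -1.08 ± 0.17 in C56BL6 (0.00144), -0.57 ± 0.14 in wild mice (0.0440) and -0.34 ± 0.10 in Acomys (0.0338), with adjusted p of 0.239, 0.132 and 0.196 in wild mice without replicates 1, 2 and 4 and of 0.147, 0.131 and 0.160 in Acomys without replicates 1, 3 and 4. With the block but without replicate 1, the adjusted p of Cdkn1b in wild mice was 0.0510. With the block 14 member tests passed, including all 7 in Acomys, where Cdkn2d had an adjusted p of 0.0495, and 0.0854 with the block but without replicate 1. Of all genes, 49.6% passed in C56BL6, 10.7% in wild mice and 25.8% in Acomys, and 60.1%, 31.9% and 49.5% with the block. Mki67 in passaged cells was at 191 ± 27.6 CPM in C56BL6, 144 ± 36.5 CPM in wild mice and 110 ± 26.3 CPM in Acomys.

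Against passaged cells, 13 of 21 member tests passed after 20 Gy, and 16 passed with the block. This comparison shares its irradiated libraries with that against unpassaged cells, and its passaged libraries with the test of passage. Cdkn1a was higher after 20 Gy in all 3 populations, by 1.03 ± 0.11 in C56BL6 (adjusted p = 0.000321), 1.60 ± 0.20 in wild mice (0.00643, and 0.0862 and 0.0689 without replicates 1 and 4) and 2.31 ± 0.16 in Acomys (4.71e-05) on the log2 scale. Cdkn2a and Cdkn2b were higher by 1.23 ± 0.27 (0.00755) and 1.55 ± 0.28 (0.00306) in C56BL6 and by 2.09 ± 0.22 (0.000319) and 2.11 ± 0.24 (0.000436) in Acomys. In wild mice Cdkn2a at 92.8, 63.2, 71.4 and 83.95 CPM passaged and 84.5, 72.6, 82.7 and 88.0 CPM after 20 Gy overlapped, with a log2 difference of 0.10 ± 0.14 (adjusted p = 0.721). Cdkn1b was lower after 20 Gy in C56BL6 (-0.54 ± 0.16, 0.0295), wild mice (-0.64 ± 0.16, 0.0377) and Acomys (-0.48 ± 0.16, 0.0401), as was Cdkn2c in C56BL6 (-1.55 ± 0.27, 0.00245) and Acomys (-0.41 ± 0.11, 0.01997) and Cdkn2d in C56BL6 (-0.52 ± 0.16, 0.0294). All 3 Cdkn1b calls, Cdkn2d in C56BL6 and Cdkn2c in Acomys were lost without 3 of the 4 replicates, with adjusted p of up to 0.202 for Cdkn1b in Acomys without replicate 3. The share of all genes past the threshold was 41.6%, 10.5% and 42.5% in C56BL6, wild mice and Acomys, and 56.1%, 38% and 56% with the block.

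Whether populations differed in their change was tested as an interaction on the log2 fold changes. At 24 h, the rise of Cdkn1a after 20 Gy was larger in Acomys than in C56BL6 by 0.83 ± 0.16 (adjusted p = 0.0121, 7.01e-05 with the block). Its adjusted p was 0.114, 0.179 and 0.130 without replicates 2, 3 and 4. No member differed between Acomys and wild mice at 24 h (0 at an unadjusted p under 0.05 and 0 by DESeq2), or between wild mice and C56BL6 (0 and 0). With the block, the fall of Cdkn2c was also larger in Acomys than in C56BL6 (-0.64 ± 0.21, 0.00213). For Cdkn1a, wild mice minus C56BL6 gave 0.68 ± 0.34 (0.112 with the block), and 1.06 with an adjusted p of 0.00304 with the block and without replicate 1. The share of all genes past the threshold was 2.08% for Acomys against C56BL6 (16.8% with the block), 0% against wild mice (7.41%) and 0% for wild mice against C56BL6 (0.647%).

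At 12 d, the change of Cdkn2a after 20 Gy was more positive in Acomys than in C56BL6 by 1.24 ± 0.40 (adjusted p = 0.0417) and than in wild mice by 1.47 ± 0.34 (0.0342). With the block these were 0.000372 and 0.000558. The falls of Cdkn1b and Cdkn2c were smaller in Acomys than in C56BL6 by 0.78 ± 0.19 (0.0136) and 0.95 ± 0.29 (0.0320). Each of the 4 calls was lost without 3 of the 4 replicates, with adjusted p of up to 0.338 for Cdkn2a against wild mice without replicate 1, and all 4 held with the block and without replicate 1. The block added Cdkn1a, Cdkn2b and Cdkn2d against C56BL6, and Cdkn1a and Cdkn2b against wild mice (Cdkn2b at 0.0360, and 0.0983 without replicate 1). Cdkn1a changed more in Acomys than in C56BL6 (0.48 ± 0.27, 0.0382 with the block) and less than in wild mice (-0.97 ± 0.40, 0.0142 with the block and 0.105 with the block but without replicate 1). No member differed between wild mice and C56BL6 in either fit, with 2 at an unadjusted p under 0.05 and 0 by DESeq2. The shares of all genes were 18.8% against C56BL6, 3.23% against wild mice and 0% between the mice, and 38.1%, 23.5% and 0.101% with the block.

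The effect of passage also differed for Cdkn1a. It was more negative in Acomys than in C56BL6 by -0.79 ± 0.24 (adjusted p = 0.0254, and 0.0521, 0.134 and 0.143 without replicates 1, 3 and 4) and than in wild mice by -1.69 ± 0.39 (0.0345, and 0.340 and 0.222 without replicates 1 and 4). The fall of Cdkn1b on passage was smaller in Acomys than in C56BL6 by 0.74 ± 0.20 (0.0143, and 0.0673 and 0.0865 without replicates 2 and 3). With the block 9 member tests passed in place of 3. These included Cdkn1a, Cdkn2a and Cdkn2b between wild mice and C56BL6, with differences of 0.91 ± 0.41, 0.92 ± 0.30 and 1.18 ± 0.47 (adjusted p with the block 0.0450, 0.0199 and 0.0296). With the block but without replicate 1, the adjusted p was 0.111 for Cdkn1a, 0.0400 for Cdkn2a and 0.0895 for Cdkn2b, so the calls of Cdkn1a and Cdkn2b were lost. Of all genes, 27.5% passed against C56BL6 (45.2% with the block), 3.49% against wild mice (23.8%) and 0.0131% between the mice (4.02%).

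In untreated cells, wild mice and C56BL6 could be compared within 1 table. Cdkn1a was lower in wild mice at 12 d, at 86.3, 38.3, 133 and 77.6 CPM against 304, 558, 402 and 364 CPM, without overlap (log2 difference -2.30 ± 0.37, adjusted p = 0.0144, 0.0609 without replicate 1 and 0.151 without replicate 4). At 24 h the difference was -0.92 ± 0.31 (adjusted p = 0.138). Cdkn1c at 12 d was 0.41 to 2.20 CPM in wild mice against 3.37 to 54.2 CPM in C56BL6, also without overlap (-4.21 ± 0.94, adjusted p = 0.0615). No member passed at 24 h by edgeR, with 3 of 7 at an unadjusted p under 0.05 and 1 by DESeq2. The share of all genes past the threshold was 5.7% at 24 h and 2.93% at 12 d.

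The other genes of the pathway were counted in 4 lists. At 12 d after 20 Gy, the share of all genes past the threshold was 26.5% in C56BL6, 0.0694% in wild mice and 31.8% in Acomys. With the block these shares were 47.5%, 15.4% and 49.2%. Of 20 p53 targets other than Cdkn1a, 11 rose and 1 fell in C56BL6 at 12 d after 20 Gy, none passed in wild mice (18 rose and 1 fell with the block), and 13 rose in Acomys. The median log2 fold change of the list was 0.58, 1.05 and 0.82, against medians over all genes tested of -0.01, -0.01 and 0.00. The largest called changes were Gdf15 (2.55 ± 0.57), Mdm2 (1.71 ± 0.17), the p53 ubiquitin ligase, and Plk2 (1.62 ± 0.25) in C56BL6, and the receptor gene Eda2r (1.83 ± 0.27), Ccng1 (1.69 ± 0.26) and Ddit4l (1.51 ± 0.46) in Acomys. At 24 h, 3 of the 20 rose in C56BL6, none passed in wild mice and 10 rose and 1 fell in Acomys, and with the block 13, 17 and 15 rose. The shares of all genes at 24 h were 0.0895%, 0% and 3.59%, and 17.6%, 12.5% and 24.1% with the block.

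Of 20 CDKs, cyclins, pocket proteins and their partners, 5 rose and 4 fell in C56BL6 at 12 d after 20 Gy, none passed in wild mice, and 4 rose and 11 fell of 19 tested in Acomys. With the block, 6 rose and 9 fell in C56BL6 and 4 rose and 3 fell in wild mice. Of all genes, 26.5%, 0.0694% and 31.8% passed in C56BL6, wild mice and Acomys, and 47.5%, 15.4% and 49.2% with the block. The largest called changes in C56BL6 were Ccna2, cyclin A2 (-1.83 ± 0.54), Ccnd1, cyclin D1 (1.80 ± 0.33), and the INK4 target Cdk6 (1.76 ± 0.27). In Acomys they were Ccna2 (-4.27 ± 0.20), Ccnb2 (-3.99 ± 0.27) and Cdk1 (-2.43 ± 0.25). Medians were -0.30, -0.33 and -0.79 on the log2 scale in the 3 populations.

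Of 20 proliferation genes, 1 fell in C56BL6 (Tyms, -0.56 ± 0.13), none passed in wild mice and 18 of 19 tested fell in Acomys, where Plk1 (-4.56 ± 0.30), Kif11 (-4.41 ± 0.22) and Cdc20 (-4.30 ± 0.25) led. With the block, 1 rose and 11 fell in C56BL6 and 1 rose and 4 fell in wild mice. The shares of all genes after 20 Gy were 26.5%, 0.0694% and 31.8% in the 3 populations, and 47.5%, 15.4% and 49.2% with the block. On passage, 19, 8 and 15 of the 20 rose in C56BL6, wild mice and Acomys, and 20, 20 and 19 with the block. Of all genes, 49.6%, 10.7% and 25.8% passed on passage in either direction, and 60.1%, 31.9% and 49.5% with the block. Of 22 regulators of the Cdkn2a-Cdkn2b locus and of p27, 3 rose and 1 fell in C56BL6, none passed in wild mice, and 1 rose and 6 fell in Acomys at 12 d after 20 Gy. The called share of this list did not exceed that of all genes in C56BL6 (26.5%), wild mice (0.0694%) or Acomys (31.8%). With the block, 4 rose and 5 fell in C56BL6, 1 rose and 1 fell in wild mice, and 2 rose and 10 fell in Acomys, where 49.2% of all genes passed. The called genes of largest change were Id1 (1.95 ± 0.48), Ets1 (1.04 ± 0.17), an activator of p16 transcription, and the Polycomb gene Cbx7 (-0.63 ± 0.20) in C56BL6. In Acomys they were Myc (-1.10 ± 0.13), Skp2 (-0.92 ± 0.12), which marks p27 for degradation, and the Polycomb gene Ezh2 (-0.90 ± 0.15).

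Members were compared with each other by Pearson's r of log2 CPM after the mean of each population and time was subtracted, over 56 mouse and 28 Acomys libraries. These libraries share doses, passage and animals, so the values describe the libraries and carry no p. Cdkn2a and Cdkn2b had r = 0.943 in Acomys and 0.698 in mice. Cdkn1a and Cdkn1b had r = -0.659 in Acomys and -0.651 in mice. Cdkn1b went with Cdkn2c (0.637 in Acomys, 0.680 in mice), and Cdkn2c with Cdkn2d at 0.753 in mice and 0.426 in Acomys. Cdkn1a went with Cdkn2a at 0.744 in Acomys and 0.141 in mice.

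Among genes of at least 5 CPM on average, those nearest to Cdkn1a were Cd80 (0.896), Inka2 (0.875) and Pmaip1 (0.868) in mice and Tmem127 (0.962), Eda2r (0.952) and Susd6 (0.950) in Acomys. Nearest to Cdkn2a were Mfsd3 (0.764), Bod1 (0.755) and Ccnq (0.742) in mice, and Tmem59l (0.973) and Fgfrl1 (0.952) were among its nearest in Acomys. Cdkn2b was nearest to 5730409E04Rik (0.820), Sumf1 (0.786) and H2-DMa (0.785) in mice and to Pdlim2 (0.946), Tmem59l (0.927) and Rab5b (0.920) in Acomys. Cdkn1b was nearest to Pofut4 (0.903), Ctdsp2 (0.885) and Pheta2 (0.883) in mice, and Mpp2 (0.919) and Elf2 (0.911) were among its nearest genes in Acomys. For Cdkn1c these were Gfra1 (0.776), Cby1 (0.753) and Rab3il1 (0.742) in mice and Bicc1 (0.918), Sdc4 (0.890) and Nfia (0.889) in Acomys. For Cdkn2c they were Zcchc3 (0.840), S1pr2 (0.834) and Nfil3 (0.833) in mice and Stag1 (0.905), Ing1 (0.903) and Rad21 (0.903) in Acomys. For Cdkn2d they were Trp53i13 (0.825), Tpi1 (0.820) and Pgm1 (0.810) in mice and Ccdc134 (0.742), Nf2 (0.707) and Cxxc5 (0.693) in Acomys.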

How the data were processed

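The authors deposited counts per gene that were not normalized, made with featureCounts 2.0.3 with the -B option (both ends mapped) and without a strand, overlap or multiple-mapping option, per the file headers. The mouse table used GRCm39 and Ensembl release 108, and the Acomys table an assembly named AcoCah2 with counts summed by gene name, also per the file headers. Trim Galore and HISAT2 are named in the submitters' processing notes. Per the labels, RNA was polyA RNA in stranded libraries. The exonic lengths beside the counts, deposited by the authors in base pairs, were used as other values to express levels per kb.

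The test of each comparison was edgeR 4.0.16 run in R 4.3.3 (filterByExpr, TMM, glmQLFit and glmQLFTest, Benjamini-Hochberg over all genes tested, threshold 0.05), with the groups compared in each fit. Standard errors are the absolute log2 fold change over the root of F. Both are from the fit without the block wherever an SE is given. Interactions with Acomys joined the tables on 18109 symbols unique in both, and scaled the libraries of each table separately. The scripts were tested on simulated data. Alternatives were RLE size factors, no expression filter, DESeq2 1.42.0, the replicate block, and leaving out each replicate number. The block without replicate 1 was added after seeing the data, and the share of all genes past the threshold is not given for it. The pairing rests on animal codes in the library names. Over 24 comparisons within populations, the departures from the group mean of libraries with 1 number correlated with a mean r of 0.471 to 0.829. Across numbers the mean r was -0.275 to -0.12, but departures from a group mean offset each other, which pulls these values down. Single values with 1 number were as low as 0.314, and single values across numbers reached 0.575 in wild mice between 20 and 10 Gy at 12 d. Replicate pairs varied 3.54-fold to 125.5-fold more than sampling noise over 126 pairs, so each library was counted once. A total of 0 count columns were left unused. The floor of 3 counts covers counting error only, since the counts hold no molecular identifiers.

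The members and lists were chosen with earlier results of these data known. Every member is reported. Listed genes were named as the 3 of largest absolute change past the threshold in C56BL6 and Acomys at 12 d and 20 Gy, and the 3 genes of highest r with each member, with log2 CPM at a prior count of 2; some of the latter are not reported here. Levels in CPM used TMM over a whole table.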

Additional observations from a re-analysis of the deposited data

Results flagged for a closer look

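In 17 of 147 groups of 4 libraries, the level of a member in 1 library lay apart from the other 3 by more of the range than Dixon's 95% critical value, where chance gives about 5% of groups. Cdkn1c stood apart in wild replicate 2 at 24 h untreated (1.96 CPM) and after 20 Gy (1.33 CPM), and in passaged cells at 12 d (1.99 CPM), against at most 0.349 CPM in the other libraries of those groups. In Acomys replicate 2 it was at 24.9 CPM at 24 h after 10 Gy, 25.6 CPM at 24 h after 20 Gy and 90.2 CPM at 12 d after 20 Gy, above the 11.4 to 18.2 CPM of the other libraries. Acomys replicate 2 was also highest for Cdkn1b after 10 Gy at 24 h (33.96 CPM) and 12 d (38.2 CPM) and for Cdkn2a after 20 Gy at 24 h (49.1 CPM). Untreated C56BL6 at 12 d had a high Cdkn2a level in replicate 2 (165 CPM) and a low Cdkn2b level in replicate 1 (33.04 CPM). Replicate 1 is the culture with Krt5 and Krt14 transcripts, and its Cdkn1c level at 24 h after 10 Gy was also apart (1.76 CPM). In wild mice, passaged replicate 2 had a low Cdkn1a level (94.4 CPM), replicate 4 at 24 h after 20 Gy a high Cdkn2a level (88.1 CPM), replicate 3 at 12 d after 20 Gy a high Cdkn2c level (21.7 CPM), and replicate 1 at 24 h after 10 Gy high levels of Cdkn2b (83.1 CPM) and Cdkn2d (19.5 CPM). The cause of these gaps was not tested.

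The change of a member differed between populations by an interaction test in 8 cases. For Acomys minus C56BL6 the differences in log2 fold change were 0.83 for Cdkn1a after 20 Gy at 24 h, 0.78 for Cdkn1b, 1.24 for Cdkn2a and 0.95 for Cdkn2c after 20 Gy at 12 d, and -0.79 for Cdkn1a and 0.74 for Cdkn1b on passage. For Acomys minus wild mice they were 1.47 for Cdkn2a after 20 Gy at 12 d and -1.69 for Cdkn1a on passage.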

How the results depend on the processing

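Of the member tests past the threshold without the block, 0 changed sign under any setting tried. The calls that held without each replicate in turn were 0 of 2 and 0 of 2 at 24 h for 20 and 10 Gy against untreated, 5 of 10 and 1 of 7 at 12 d, 3 of 8 for passage, 7 of 13 for 20 Gy against passaged, 0 of 1, 0 of 4 and 0 of 3 for the differences between populations at 24 h, at 12 d and in passage, and 0 of 1 for untreated wild against C56BL6. With 4 libraries a group, a member that did not pass may still differ. Depth limits Cdkn1c in some wild libraries at 24 h and after passage, where the lowest levels were 0.0625 and 0.0721 CPM, but at 12 d without passage it was at 0.335 to 2.20 CPM, above the floor of 3 counts. The cause of the changes in count below was not tested, except that leaving out a replicate leaves fewer samples.

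Counts of member tests past the threshold, over all populations, are given in the order 20 Gy against untreated, 10 Gy against untreated and 20 against 10 Gy. At 24 h they were 2, 2 and 0 without the block and 12, 8 and 1 with the replicate block, and 12, 13 and 2 with the replicate block and without replicate 1. DESeq2 called 4, 3 and 0. Leaving out 1 replicate gave 0 to 2, 0 to 3 and 0 to 0. At 12 d they were 10, 7 and 0 without the block and 16, 15 and 2 with the replicate block, and 13, 12 and 0 with it and without replicate 1. DESeq2 called 13, 10 and 0 at 12 d, and 10, 6 and 0 passed without the expression filter. Leaving out 1 replicate gave 6 to 10, 1 to 7 and 0 to 3. For passage the count was 8, or 14 with the replicate block, 11 with it and without replicate 1, and 3 to 8 without 1 replicate. For 20 Gy against passaged it was 13, 16 and 15, and 7 to 11. DESeq2 called 11 for passage and 14 for 20 Gy against passaged. Without the expression filter 7 passed for passage, and with RLE size factors 12 passed for 20 Gy against passaged. For the differences between populations the count was 1 at 24 h, 4 at 12 d and 3 for passage. These became 2, 9 and 9 with the replicate block, and 5, 7 and 6 with it and without replicate 1. Without 1 replicate they were 0 to 1, 0 to 4 and 1 to 2. They were 1, 5 and 4 by DESeq2 and 1, 5 and 3 with RLE size factors. For untreated wild against C56BL6 the count was 1, with 3 by DESeq2, 2 without the expression filter and 0 to 1 without 1 replicate.

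Signs changed for members that did not pass, with 86 changes of sign in 47 of 242 member tests over the settings tried. The cases below come from 125 of these tests, and the others are not listed. The log2 fold change of Cdkn2a at 12 d after 20 Gy in C56BL6 was 0.011 with RLE size factors and with DESeq2, 0.055 with the replicate block and without replicate 1, and -0.061 to 0.063 without 1 replicate. In passaged wild cells, Cdkn2b was 0.048 with the replicate block and Cdkn2c 0.129, or 0.212 with the block and without replicate 1, and without 1 replicate they ranged from -0.209 to 0.3 and from -0.362 to 0.318. Without 1 replicate, the ranges at 24 h after 20 Gy were -0.094 to 0.02 for Cdkn2b in C56BL6, -0.063 to 0.069 for Cdkn2b in wild mice, -0.137 to 0.125 for Cdkn1c in Acomys and -0.004 to 0.29 for Cdkn2a in Acomys. That of Cdkn1c in wild mice at 12 d was -0.458 to 0.452.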
